A study of Mus musculus with 16 samples.

Results

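The neuronal immediate early genes described here are 10 genes: Fos, Fosb, Junb, Egr1, Egr2, Egr4, Nr4a1, Nr4a3, Npas4 and Arc. They were taken by gene symbol from the deposited table of raw counts, which has 54532 rows, and each symbol was found. All 10 passed the filter on low counts that left 17736 genes for testing, and each had reads in every library. The study sequenced RNA from bulk brain tissue of female mice aged 9 months. Its 16 libraries fall into 4 groups of 4, which combine the Ch25h genotype (wild type, Ch25h+/+, or homozygous knockout, Ch25h-/-) with the absence or presence of tau (Tau- or Tau+). Ch25h encodes cholesterol 25-hydroxylase, which makes the oxysterol 25-hydroxycholesterol. The labels give the tissue of each sample as frontal cortex, whereas the design text of the series names the hippocampus. They give neither the tau transgene nor its promoter, and they do not say that the libraries of a group come from separate animals, so p-values measure the spread between these samples. Replicate numbers within a group were given here in the order of the sample records and pair no samples.

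Immediate early genes are transcribed within minutes of neuronal firing or growth factor signalling, without the need for new protein. Calcium and kinase signals act on factors already bound to their promoters, chiefly CREB at cyclic AMP response elements and serum response factor at CArG boxes. Most of these genes encode transcription factors that act on a later wave of genes, while Arc encodes a protein that acts at synapses, and transcripts of both kinds are widely used as marks of recent neuronal activity in cortex and hippocampus.

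Promoter windows were read from RefSeq on GRCm38.p6, from 250 bases before to 50 bases after a start site, for 8 of the 10 genes, all but Arc and Egr1. Both strands were searched for 4 motifs: the full cyclic AMP response element TGACGTCA, its core TGACG (which also lies within the full element), the CArG box, and the AP-1 site TGANTCA. All 8 genes had the core in a window, against 23.0% of the 27025 genes in the table. The CArG box, read strictly as CCWWWWWWGG with A or T at each W, was found in 1 of the 8, Egr2, against 1.81% of genes. Sites beyond these windows or with other letters were not searched for, so a gene without a match may still have one elsewhere. Neither the full element nor the AP-1 site was found in any of the 8, against 2.03% and 8.97% of genes. The windows of 4 genes are shown because these genes form the most and the least alike pair across libraries in the measurements below, Fos with Egr2 and Npas4 with Nr4a3. Each runs 5′ to 3′ along the gene, and capitals mark cores on either strand and, in Egr2, also the CArG box. The window of Fos lies at chr12:85473640-85473939 on the plus strand, that of Egr2 at chr10:67537619-67537918 on the plus strand, that of Npas4 at chr19:4989922-4990221 on the minus strand, and that of Nr4a3 at chr4:48045055-48045354 on the plus strand.
Fos: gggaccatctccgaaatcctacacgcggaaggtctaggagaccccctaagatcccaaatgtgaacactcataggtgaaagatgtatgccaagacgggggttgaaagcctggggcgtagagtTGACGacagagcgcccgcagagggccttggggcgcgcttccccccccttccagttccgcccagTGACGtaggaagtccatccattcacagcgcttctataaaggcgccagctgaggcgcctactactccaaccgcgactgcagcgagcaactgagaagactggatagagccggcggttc
Egr2: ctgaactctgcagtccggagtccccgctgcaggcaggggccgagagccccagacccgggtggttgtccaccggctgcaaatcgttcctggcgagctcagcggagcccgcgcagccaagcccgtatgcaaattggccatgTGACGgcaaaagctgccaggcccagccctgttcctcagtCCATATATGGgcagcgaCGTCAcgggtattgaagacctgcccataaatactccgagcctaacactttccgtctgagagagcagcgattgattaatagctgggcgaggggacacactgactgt
Npas4: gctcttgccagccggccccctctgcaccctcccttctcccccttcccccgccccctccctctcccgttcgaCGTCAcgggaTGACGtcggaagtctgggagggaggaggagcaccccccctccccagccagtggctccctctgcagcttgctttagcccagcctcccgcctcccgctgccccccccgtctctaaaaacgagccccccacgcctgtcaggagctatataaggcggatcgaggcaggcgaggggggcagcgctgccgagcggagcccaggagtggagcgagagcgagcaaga
Nr4a3: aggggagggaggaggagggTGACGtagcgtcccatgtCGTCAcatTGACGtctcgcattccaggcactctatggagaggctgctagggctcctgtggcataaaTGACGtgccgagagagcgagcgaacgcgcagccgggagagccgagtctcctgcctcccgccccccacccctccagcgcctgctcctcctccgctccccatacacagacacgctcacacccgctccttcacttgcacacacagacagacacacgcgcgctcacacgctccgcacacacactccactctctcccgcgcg
A core began 129 and 66 bases before the start site in Fos and 111 and 55 bases before it in the Egr2 window shown. The table lists 5 windows for Egr2 and 1 for each of the other 7 genes. Of the 5, 3 hold the core, 4 the CArG box and 2 no core, and the window shown is one of those with both motifs. In Npas4 the cores began 179 and 169 bases before the start. Nr4a3 held 4 of them, beginning 231, 213, 205 and 147 bases before it. The CArG box of Egr2 began 72 bases before the start, between its cores. The least alike pair thus holds the core just as the most alike pair does, and a match of letters is a description, not a measured binding site.

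Depth was 15530352 to 25602500 counts per library. Ch25h had no count in any of the 8 Ch25h-/- libraries and 0.216 to 1.26 CPM (counts scaled to library size, here with edgeR's TMM method) in the 8 Ch25h+/+ libraries. Prnp, whose promoter drives the transgene of some tau mouse lines, had 708 to 839 CPM in the Tau- and 1414 to 1935 CPM in the Tau+ libraries. Markers of cortex summed to 748 to 944 CPM and those of hippocampus to 166 to 333 CPM, with none of either at 0 throughout. Of the 8 Ch25h-/- libraries, 7 were rich in the ribosomal RNA transcript CT010467.1 (over 1000 CPM of total counts), all but Ch25h-/- Tau+ replicate 1, and none of the Ch25h+/+ libraries was. Ch25h genotype and this library class can therefore hardly be told apart, and values with the class as a covariate are given where genotype is compared. In that fit only Ch25h-/- Tau+ replicate 1, set against the other libraries of its group, separates class from genotype. All values with the covariate rest on this 1 library. In bulk tissue, fewer cells that express a gene and less of its RNA per cell cannot be told apart.

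Per kilobase of exon (GENCODE M21), Arc had the highest mean level, 160.01 ± 93.1 CPM per kb (SD over the 16 libraries), and Fosb the lowest, 6.48 ± 2.72 CPM per kb. Between them came Egr1 at 129 CPM per kb, Junb at 81.0, Nr4a1 at 68.4, Egr4 at 49.1, Fos at 30.6, Npas4 at 14.6, Nr4a3 at 7.60 and Egr2 at 7.19 CPM per kb. Neighbours in this order kept it in 16 of 16 libraries for Egr1 over Junb, Junb over Nr4a1, Egr4 over Fos and Fos over Npas4. The order of Arc over Egr1 held in 11 libraries, Nr4a3 over Egr2 in 9 and Egr2 over Fosb in 8, so these neighbours did not differ beyond their spread. Nr4a1 exceeded Egr4, and Npas4 exceeded Nr4a3, in 13 libraries each. Junb overlaps Prdx2 on the opposite strand, and its value is uncertain by the reads of that gene, since the use of strand in counting is not given in the sources used here. No other of the 10 overlaps an annotated gene.

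The AP-1 genes come first. Fos encodes the dimer partner of Jun proteins in the AP-1 transcription factor. Its level was 146, 58.6, 42.7 and 98.2 CPM in Ch25h+/+ Tau- replicates 1 to 4, and 59.3, 102, 40.9 and 62.9 CPM in Ch25h+/+ Tau+. In Ch25h-/- Tau- it was 118, 76.4, 16.8 and 109 CPM, and in Ch25h-/- Tau+ 82.8, 27.9, 22.7 and 87.4 CPM. Every group held both low and high libraries and all 4 groups overlapped, with the lowest value (16.8 CPM) and the second highest (118 CPM) in the same group. Fosb, whose shortened splice form deltaFosB accumulates with repeated activity, ranged between 35.5 and 75.7 CPM in the Ch25h+/+ Tau- libraries, between 21.5 and 57.7 CPM with tau added, between 14.3 and 61.9 CPM in Ch25h-/- Tau-, and between 24.2 and 38.6 CPM where Ch25h was lost and tau present. Junb, a Jun-family partner of Fos proteins, spanned 141 to 349, 134 to 268, 65.4 to 279 and 62.2 to 225 CPM in the same order of groups. The group means of Junb were 227 ± 101.5, 196 ± 54.9, 190.4 ± 91.3 and 132 ± 80.6 CPM (SD, n = 4 each), so that each mean lay within 1 SD of the highest one.

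The EGR genes encode zinc finger factors that bind GC-rich sites. Egr2 varied most of all 10. Its 4 values were 61.5, 16.4, 11.7 and 43.6 CPM in Ch25h+/+ Tau-, 13.7, 39.8, 8.41 and 15.5 CPM in Ch25h+/+ Tau+, 46.1, 20.5, 3.86 and 38.3 CPM in Ch25h-/- Tau-, and 31.5, 7.80, 5.63 and 26.5 CPM in Ch25h-/- Tau+. The highest library was 15.96 times the lowest. Egr1, a factor long used to map neuronal activity and required for late phases of memory, was the steadiest of the 3 EGR genes of the set, from 222 to 906 CPM. Its group means were 704 ± 183 CPM in Ch25h+/+ Tau-, 519 ± 175 in Ch25h+/+ Tau+, 553 ± 233 in Ch25h-/- Tau- and 539 ± 192 CPM in Ch25h-/- Tau+ (SD, n = 4 each). Egr4 had group means of 137 ± 40.8, 97.6 ± 32.0, 99.6 ± 44.0 and 88.5 ± 34.02 CPM in the same order. For Egr1 and Egr4 alike, the Ch25h+/+ Tau- group had the highest mean and its lowest library lay inside the range of each other group.

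Nr4a1 and Nr4a3 encode orphan nuclear receptors that act without a known natural ligand. Nr4a1 measured 503, 153, 161 and 389 CPM in Ch25h+/+ Tau-, 193, 346, 161 and 191 CPM in Ch25h+/+ Tau+, 341, 232, 84.0 and 322 CPM in Ch25h-/- Tau-, and 337, 94.5, 79.8 and 255 CPM in Ch25h-/- Tau+. Its highest library and its 3 lowest were the same as those of Fos. Nr4a3 did not share this order. It measured 66.3, 47.2, 29.1 and 56.9 CPM in Ch25h+/+ Tau-, 34.2, 56.0, 21.2 and 22.1 CPM in Ch25h+/+ Tau+, 70.6, 23.1, 40.0 and 51.0 CPM in Ch25h-/- Tau-, and 62.7, 43.0, 44.9 and 59.5 CPM in Ch25h-/- Tau+. The Ch25h-/- Tau+ group, whose mean was the lowest of the 4 for Fos, Fosb, Junb, Egr2, Egr4, Nr4a1, Npas4 and Arc, had the highest mean of Nr4a3 (52.5 ± 9.996 CPM, SD, n = 4).

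Npas4 encodes a bHLH-PAS factor that responds to calcium entry into neurons and shapes inhibitory synapses. It measured 109, 41.9, 60.8 and 69.8 CPM in Ch25h+/+ Tau-, 73.5, 63.1, 60.3 and 79.2 CPM in Ch25h+/+ Tau+, 81.2, 83.2, 25.7 and 73.6 CPM in Ch25h-/- Tau-, and 51.3, 23.98, 17.7 and 52.9 CPM in Ch25h-/- Tau+. All 4 Ch25h-/- Tau+ libraries lay below all 4 Ch25h+/+ Tau+ libraries, and 10.2% of all genes tested were likewise apart in this comparison, in either direction. Arc, whose messenger RNA travels to dendrites and whose protein promotes the removal of AMPA receptors from synapses, measured 959, 277, 322 and 1095 CPM in Ch25h+/+ Tau-, 299.7, 755, 340 and 398 CPM in Ch25h+/+ Tau+, 649, 525, 179.7 and 719 CPM in Ch25h-/- Tau-, and 534, 135, 152 and 485 CPM in Ch25h-/- Tau+. Within Ch25h+/+ Tau- its libraries formed a low pair and a high pair, and the same split was present in Ch25h-/- Tau+.

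**Figure D1:**
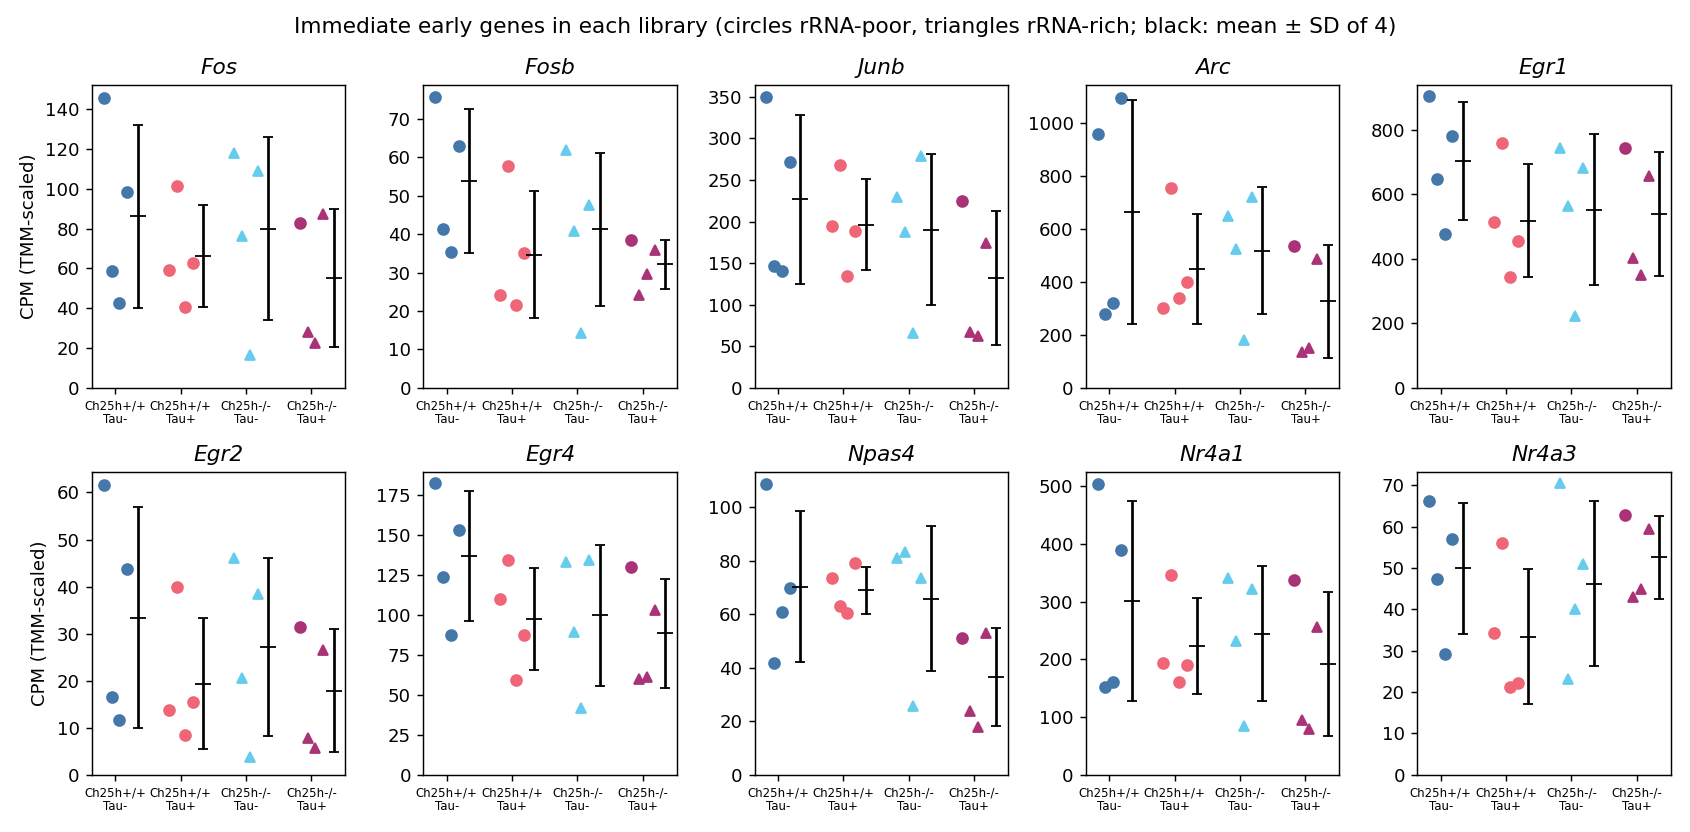
Level of each of the 10 genes in CPM on TMM-scaled library sizes (vertical axis) in the 4 groups (horizontal axis). Each point is 1 library, circles are rRNA-poor and triangles rRNA-rich libraries, and black bars give the mean ± SD of 4. Every gene's groups overlap except Npas4 between Ch25h+/+ Tau+ (60.3 to 79.2 CPM) and Ch25h-/- Tau+ (17.7 to 52.9 CPM), where 10.2% of all genes tested do not overlap either.

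The genes varied more between libraries of a group than most others did. The SD of log2(CPM + 0.5) within groups had a median of 0.700 over the 10 genes, from 0.549 for Nr4a3 to 1.22 for Egr2, against 0.189 over the 17736 genes tested. Among the 7438 genes with a mean CPM at or above that of Egr2, the least abundant of the 10 in CPM (24.4 CPM), the median was 0.131. All 10 were among the 50 most variable of those 7438 genes, with Egr2 at rank 9, Fos at 16, Arc at 17 and Nr4a1 at 18. The biological coefficient of variation estimated by edgeR had a median of 0.378 over the 10 genes and 0.133 over the genes tested. The comparisons of 4 against 4 libraries therefore carry a median standard error of about 0.39 on the log2 scale for these genes, from 0.318 to 0.663. The median was 0.274 for effects averaged over 2 comparisons and 0.548 for the interaction.

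The spread was shared by the genes. Ch25h+/+ Tau- replicate 1 was among the 4 highest libraries for 10 of 10 genes and the highest for 8 of them. The next 3 libraries by mean log2 level were Ch25h+/+ Tau- replicate 4, Ch25h-/- Tau- replicate 1 and Ch25h+/+ Tau+ replicate 2, from 3 different groups. At the other end, Ch25h-/- Tau- replicate 3 was among the 4 lowest for 9 genes and the lowest for 5, followed by Ch25h-/- Tau+ replicates 3 and 2 and Ch25h+/+ Tau+ replicate 3. High and low libraries were thus found on both sides of each genotype and tau status, as the map of levels by library shows. They were not spread evenly: the 3 lowest were all Ch25h-/- and rRNA-rich, as was Ch25h-/- Tau- replicate 1 among the 4 highest. No Ch25h+/+ Tau- library was among the 4 lowest, and no Ch25h-/- Tau+ library among the 4 highest.

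**Figure D2:**
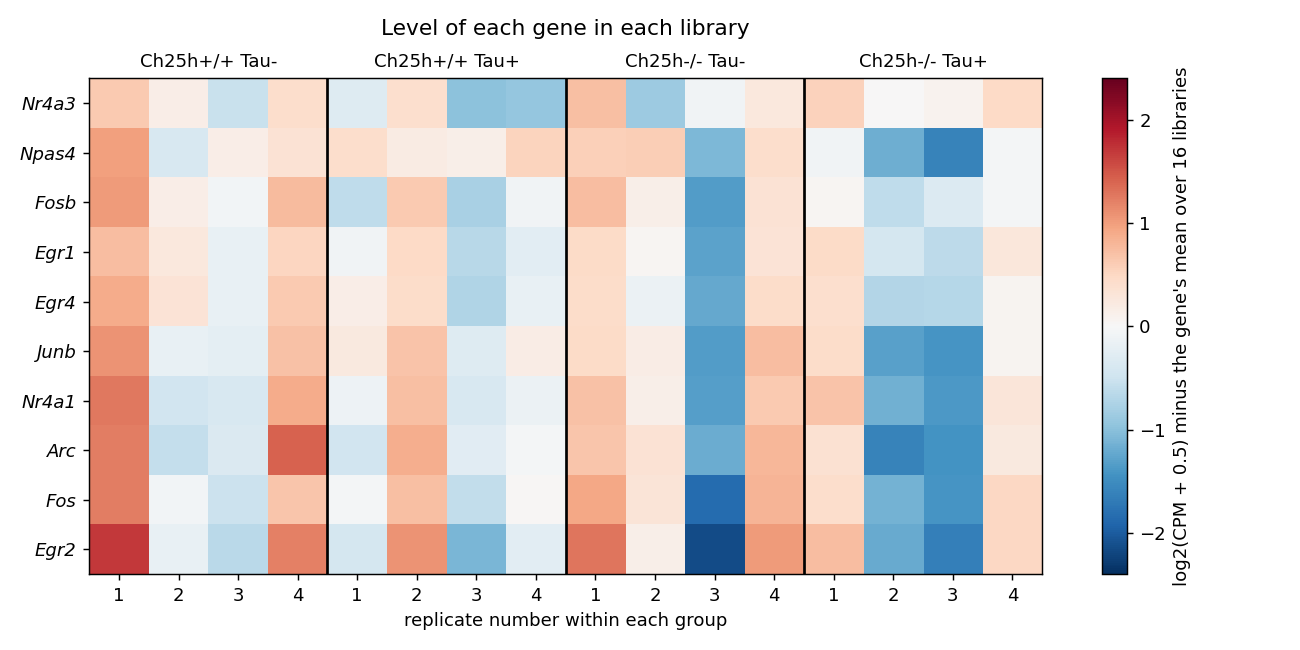
Each cell gives log2(CPM + 0.5) of a gene (rows) in a library (columns, by group and replicate number) minus that gene's mean over the 16 libraries, from blue (below) to red (above). Columns of 1 colour cross most rows, such as Ch25h+/+ Tau- replicate 1 (10 of 10 genes among the 4 highest libraries) and Ch25h-/- Tau- replicate 3 (9 of 10 genes among the 4 lowest), while the row of Nr4a3 departs from them.

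Across the 16 libraries, the 45 pairs of genes had a median Pearson r of 0.874 on log2(CPM + 0.5), from -0.03 to 0.98, and 20 pairs were above 0.9. The median Spearman rho was 0.871. These correlations are descriptions with no p-value, and all genes of a library share its depth, tissue sampling and handling. With each group's mean subtracted the median r was 0.899 and the lowest 0.252, so the relation was present among libraries of the same group. Within the 7 rRNA-rich libraries the median was 0.926, and within the 9 others 0.840. Leaving out the 2 libraries farthest from the median of the first gene of each pair gave a median of 0.819.

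Fos and Egr2 were the most alike pair, with r = 0.980 and rho = 0.976 over 16 libraries, and r = 0.971 without the 2 farthest libraries. These 2 genes encode factors of different families, and both have cores in the windows printed above. Egr1 with Egr4 followed within the EGR family (r = 0.972), then Egr2 with Nr4a1 (0.971), and Junb and Arc each with Nr4a1 (0.969). By the median r to the other 9 genes, Egr2 (0.931) and Fos (0.930) came first. Junb had 0.906, Egr4 and Nr4a1 0.902, Egr1 0.898, Arc 0.839 and Fosb 0.838.

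Npas4 and Nr4a3 had the lowest median r to the other 9 genes, 0.755 and 0.458, and between the 2 r was -0.03 (rho = 0.106). The gap between them depends on the measure. By ranks they were level, with a median rho of 0.674 for Npas4 and 0.685 for Nr4a3, below the 0.826 of Fosb, the next lowest. With group means subtracted Npas4 had a median r of 0.825, near Fosb (0.851) and Arc (0.870), and Nr4a3 had 0.595. In the rRNA-rich libraries Npas4 followed the other genes (median r 0.907) and Nr4a3 did not (0.297). In the rRNA-poor libraries the reverse was seen, 0.403 for Npas4 and 0.797 for Nr4a3. Both values rest on 7 and 9 libraries. Without Nr4a3, the remaining 36 pairs had a median r of 0.905 and a lowest value of 0.622.

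**Figure D3:**
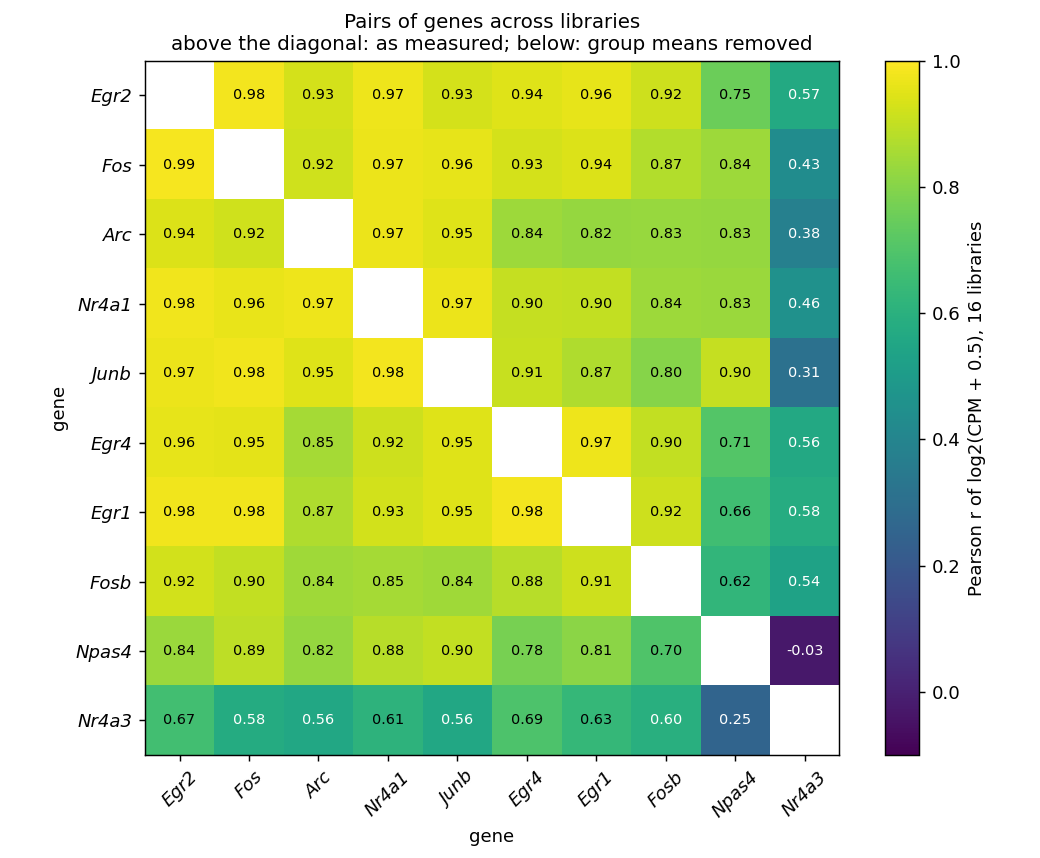
Pearson r of log2(CPM + 0.5) over 16 libraries for each pair of genes (both axes), above the diagonal as measured and below it with group means removed. The first 8 genes form a block of high values, and Nr4a3 has the lowest row, with r = -0.03 to Npas4 as measured and 0.252 with group means removed.

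**Figure D4:**
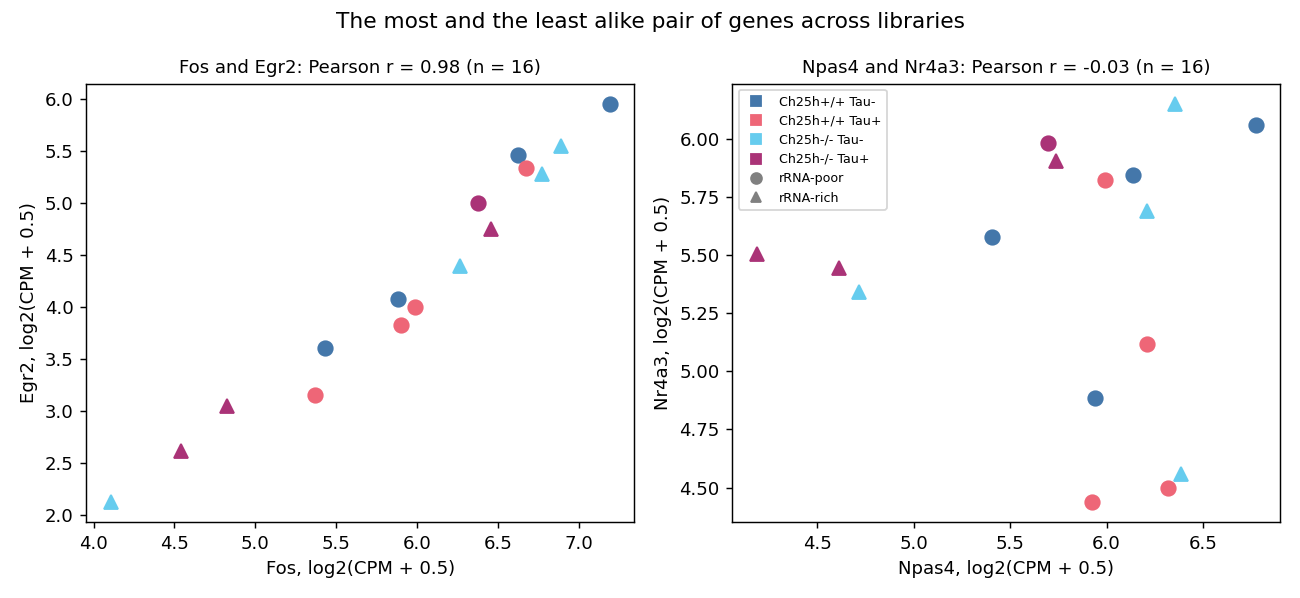
Log2(CPM + 0.5) of Egr2 against Fos (left) and of Nr4a3 against Npas4 (right), 1 point per library, coloured by group, with triangles for rRNA-rich libraries. The 16 points lie close to a line on the left (r = 0.980) and follow none on the right (r = -0.03).

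Each gene was set against the mean standardized level of the other 9, among 13951 genes ranked with it. Egr2 (r = 0.993), Fos (0.978) and Nr4a1 (0.972) ranked 1st, Egr4 (0.952), Egr1 (0.946) and Junb (0.943) at rank 2, Arc (0.924) at rank 3 and Fosb (0.892) at rank 11. Npas4 came at rank 60 (r = 0.743) and Nr4a3 at rank 872 (0.446). The 10 genes outside the set most like its mean, of 13950 ranked (mean log2 CPM of 1 or more), were Dusp6 (r = 0.953), Trib1 (0.940), Dusp1 (0.933), 1700016P03Rik (0.925), Ier2 (0.922), Midn (0.916), Sik1 (0.906), Cyr61 (0.906), Arl4d (0.899) and Dusp5 (0.892), while the median over all 13950 was 0.00875. Dusp1, Dusp5 and Dusp6 encode phosphatases that switch off MAP kinases. Sik1 encodes a kinase that restrains the CREB coactivators, and Cyr61 a secreted matrix protein. Of these 10, 8 are in the list of other immediate early genes used here. Of all 13950, 8 genes exceeded 0.9 and 38 exceeded 0.8.

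Other genes of the pathway followed the set to differing degrees. The 36 other immediate early genes had a median r of 0.736 with the set's mean, and 16 of them were above 0.8. The 12 delayed activity genes, which respond later, had a median of 0.363, and the 13 upstream transcription factors one of -0.05. Serum response factor itself, Srf, was the 1 upstream factor above 0.8 (0.850). Among 8 dimer partners and co-repressors the 1 above 0.8 was Nab2, a co-repressor of EGR factors (0.829). The 7 heat shock genes, which also respond fast to stress and handling, had a median of 0.345 with Dnajb1 highest (0.796). Summed markers of cell types and regions had r from -0.40 (mural cells) to 0.303 (striatum) with the set's mean. Excitatory neurons had 0.181, inhibitory neurons -0.07, thalamus -0.27, cortex 0.032, hippocampus -0.06 and choroid plexus -0.04, the last with a summed level from 12.9 to 2725 CPM. Without the 2 libraries farthest from the median of each marker sum, r was 0.490 for striatum, 0.468 for excitatory neurons, -0.40 for inhibitory neurons, -0.42 for thalamus and -0.24 for mural cells, so these values depend on few libraries. None of these marker lists had a member at 0 in all libraries. The r of the set's mean was -0.24 with CT010467.1, -0.22 with Malat1 and 0.371 with total counts, and without the 2 farthest libraries -0.41, -0.46 and 0.258.

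The presence of tau was compared first within Ch25h+/+. All 10 genes had a lower fitted mean in Tau+, with log2 fold changes from -0.77 for Egr2 to -0.03 for Npas4 and a median of -0.46, against -0.01 over all genes tested. Of 230 values under other settings, 5 were above 0, all of Npas4 or Junb. The sizes rest on few libraries: without Ch25h+/+ Tau+ replicate 2 the median was -0.70 and Egr2 at -1.40, and without Ch25h+/+ Tau- replicate 1 they were -0.29 and -0.29. The test called none of them: the adjusted p of edgeR's quasi-likelihood test ran from 0.654 to 0.997, with 0 of 10 at an unadjusted p under 0.05 (9.38% of all genes), and DESeq2 and limma-voom called 0 as well, while 1.56% of all genes were called. Fosb had the smallest p, with a log2 fold change of -0.63 ± 0.35 (SE) and a 95% interval of -1.37 to 0.10. The interval of Egr2 was -2.15 to 0.60 and that of Arc -1.64 to 0.51, so that sizeable falls and modest rises both lie inside them. None of the 10 had groups that did not overlap, against 5.86% of all genes. Since the 10 genes go up and down together from library to library, their common direction is not 10 separate observations.

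Within Ch25h-/-, 9 of the 10 genes had a lower fitted mean in Tau+ (median log2 fold change -0.44, against 0.01 over all genes; without 1 library at a time, -0.80 to -0.19). Again edgeR called 0 of 10, as did DESeq2 and limma-voom, with 0.0395% of all genes called. One gene, Npas4, had an unadjusted p under 0.05 (0.0279), as 3.68% of all genes did. Its log2 fold change was -0.85 ± 0.36 (SE), with an interval of -1.59 to -0.10 and an adjusted p of 0.999984, and its libraries overlapped because replicate 3 of the Tau- group measured 25.7 CPM. The exception in direction was Nr4a3, at 0.19 (interval -0.48 to 0.86). With the library class as a covariate the median over the 10 was -0.79, with 9 below 0. It is no separate check from the -0.80 without Ch25h-/- Tau+ replicate 1, since that library alone sets the class term. No gene of the set had groups apart, against 2.14% of all genes. Averaged over both genotypes, the tau effect was below 0 for 10 of 10 genes, from -0.68 for Egr2 to -0.19 for Nr4a3 (median -0.42, against 0.00 over all genes; without 1 library at a time, -0.56 to -0.26). Here too 0 were called by any of the 3 tools, 0 had an unadjusted p under 0.05 (9.85% of all genes), and 0.857% of all genes were called. With the class as a covariate the median was -0.55, close to the -0.56 without Ch25h-/- Tau+ replicate 1. The smallest p was that of Fosb, at -0.50 ± 0.25 (SE; interval -1.02 to 0.03; adjusted p 0.551 by edgeR).

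Of the 76 other pathway genes in the 5 lists, edgeR called 1 for tau in Ch25h+/+, or 1.32%, near the 1.56% of all genes. It was among the 36 other immediate early genes: Homer1, whose short Homer1a form loosens the postsynaptic scaffold. It fell from 278 ± 22.1 to 187 ± 41.3 CPM (SD, n = 4 each), a log2 fold change of -0.57 ± 0.13 (SE; adjusted p 0.0231 by edgeR). The counts do not separate the Homer1 forms. The call was lost when only the 8 libraries compared were fitted and when any of 5 single libraries was left out: Ch25h+/+ Tau- replicates 2 and 4, and Ch25h+/+ Tau+ replicates 1, 3 and 4. Homer1 followed the 10 genes weakly across libraries (r = 0.269). DESeq2 and limma-voom called Homer1 too, each with 1 further gene of that list (Egr3 and Rgs2). In that list 32 of 36 had a lower fitted mean, and 7 of 36 had an unadjusted p under 0.05 in edgeR, where 9.38% of all genes did. None of the 12 delayed genes, 13 upstream factors, 8 partners or 7 heat shock genes was called for tau in Ch25h+/+ by any of the 3 tools, with 2, 2, 0 and 2 at an unadjusted p under 0.05 in edgeR. In Ch25h-/-, 0 genes of these 5 lists were called by any of the 3 tools, and 3, 1, 0, 0 and 0 had an unadjusted p under 0.05 (3.68% of all genes). In the mean tau effect edgeR and limma-voom called 0 of them (4, 3, 2, 0 and 0 at an unadjusted p under 0.05, and 9.85% of all genes), and DESeq2 called 1, Egr3, the EGR gene outside the set. By edgeR, Egr3 had a mean tau effect of -0.39 (adjusted p 0.128). Markers of other cells differed with tau in Ch25h+/+: by edgeR, 3 of 5 microglial, 1 of 5 mural and 1 of 5 thalamic markers rose. The microglial markers summed to 252 to 268 CPM in Tau- and 318 to 413 CPM in Tau+, and the 6 striatal markers summed to 175 to 275 CPM in Tau- and 159 to 178 CPM in Tau+ with 0 called by edgeR, 3 by DESeq2 and 1 by limma-voom. Their part in the values of the 10 genes was not tested.

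**Figure D5:**
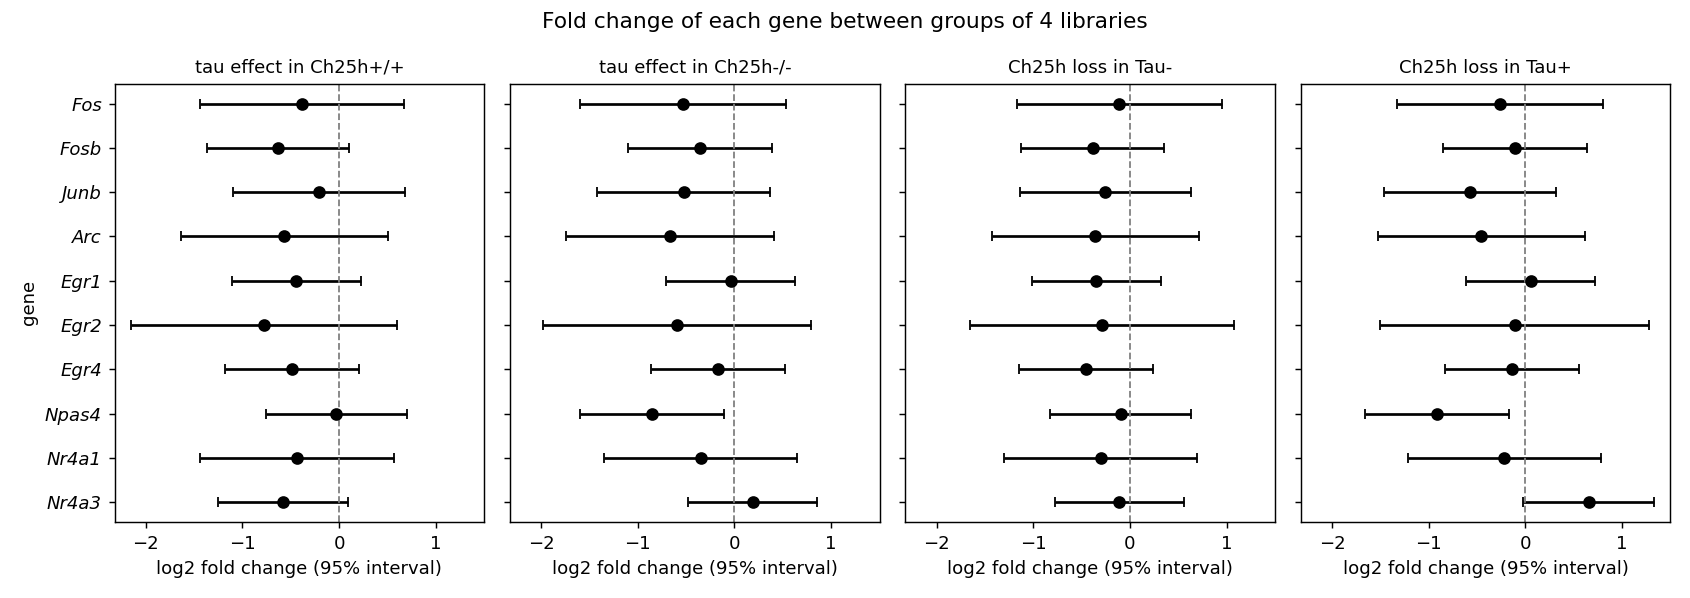
Log2 fold change (horizontal axis, point) with its 95% interval from edgeR for each gene (rows) in the 4 comparisons of 4 against 4 libraries. Most points lie left of 0, and only Npas4 has intervals that leave out 0, for tau in Ch25h-/- (-1.59 to -0.10) and Ch25h loss in Tau+ (-1.66 to -0.17), neither of which passed after adjustment over all genes.

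Loss of Ch25h was compared within each tau status. In Tau-, all 10 genes had a lower fitted mean in Ch25h-/-, from -0.45 for Egr4 to -0.09 for Npas4 on the log2 scale (median -0.30, against 0.01 over all genes). Without Ch25h+/+ Tau- replicate 1 the median turned to 0.04. None was called by edgeR, DESeq2 or limma-voom, against 1.03% of all genes by edgeR, and 0 had an unadjusted p under 0.05, against 20.9% of all genes. The intervals ran from -1.15 to 0.24 for Egr4 and from -1.66 to 1.07 for Egr2. No gene of the set had groups that did not overlap, whereas 16.2% of all genes did. Of the marker lists, edgeR called 1 of 6 hippocampal markers, lower, and no other. DESeq2 called 2 excitatory neuron and 2 microglial markers, and limma-voom called 2 and 2 of these and 1 hippocampal marker. With the library class as a covariate the direction turned, with 9 of the 10 above 0 (median 0.65). That fit takes the class term from Ch25h-/- Tau+ replicate 1 alone, outside this comparison, since all Ch25h-/- Tau- libraries were rRNA-rich. The sign of these differences cannot be told apart from the class.

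In Tau+, 8 of the 10 were lower in Ch25h-/- (median -0.18, against 0.00 over all genes), but with the class as a covariate 9 of 10 were above 0 (median 0.37) and Npas4 alone was below. Without Ch25h+/+ Tau+ replicate 2 the median was 0.05, and without Ch25h-/- Tau+ replicate 1 it was -0.56. The groups did not overlap for 1 of the 10, Npas4, against 10.2% of all genes. Npas4 averaged 69.0 ± 8.83 CPM in Ch25h+/+ and 36.5 ± 18.2 CPM in Ch25h-/- (SD, n = 4 each), a log2 fold change of -0.91 ± 0.35 (SE; interval -1.66 to -0.17; unadjusted p 0.0187, adjusted p 0.129 by edgeR). It was the 1 gene of the 10 with an unadjusted p under 0.05, where 23.9% of all genes had one. edgeR, DESeq2 and limma-voom called 0 of the 10, while edgeR called 3.55% of all genes. With no filter on low counts beyond 1 count, Npas4 passed edgeR's test (adjusted p 0.0205). With the class as a covariate its log2 fold change was -0.43, with 0 genes called. The single rRNA-poor Ch25h-/- Tau+ library measured 51.3 CPM of Npas4, below all 4 Ch25h+/+ Tau+ libraries. Markers of other cells differed here as well: by edgeR, 4 of 5 microglial, 1 of 5 mural and 1 of 5 thalamic markers fell with Ch25h loss. DESeq2 and limma-voom called as many of these lists, and each also 1 excitatory neuron, 1 inhibitory neuron, 1 astrocyte and 1 endothelial marker. Limma-voom called 3 oligodendrocyte markers too. The microglial sum was 318 to 413 CPM in Ch25h+/+ and 249 to 304 CPM in Ch25h-/-, the mural sum 223 to 248 and 185 to 215 CPM, and the thalamic sum 99.0 to 149 and 123 to 153 CPM; their part in the values of the 10 genes was not tested. Nr4a3 lay on the other side of 0 from Npas4, from 33.4 ± 16.2 to 52.5 ± 9.996 CPM, a log2 fold change of 0.65 ± 0.32 (SE; interval -0.02 to 1.33; adjusted p 0.223).

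Whether the tau effect differed by genotype was tested by the interaction. edgeR, DESeq2 and limma-voom called 0 of the 10 genes, 0 had an unadjusted p under 0.05 (4.13% of all genes), and edgeR called 0.0338% of all genes. Npas4 had an interaction of -0.82 ± 0.50 (SE; interval -1.86 to 0.22) and Nr4a3 one of 0.76 ± 0.45 (interval -0.18 to 1.71), the 2 farthest from 0 and on opposite sides. The median interaction was 0.13, from -0.32 to 0.43 without 1 library at a time, and with the class as a covariate -0.30. Averaged over both tau states, the effect of Ch25h loss was below 0 for 9 of 10 genes (median -0.25, against 0.00 over all genes; without 1 library at a time, -0.43 to -0.10), with 0 called by any of the 3 tools, against 20.3% of all genes by edgeR, and 0 at an unadjusted p under 0.05, against 35.1% of all genes. Npas4 was lowest at -0.50 ± 0.25 (SE; interval -1.03 to 0.02), and Nr4a3 alone was above 0 (0.27 ± 0.23). With no filter beyond 1 count Npas4 passed here as well (adjusted p 0.0377), and with the class as a covariate its mean effect of Ch25h loss was 0.09. All 10 genes were then above 0 (median 0.50), with 0 called and 0 at an unadjusted p under 0.05. In this mean effect 3 of 6 excitatory neuron markers (1 higher, 2 lower), 3 of 5 microglial (1 higher, 2 lower) and 2 of 5 oligodendrocyte markers (lower) were called by edgeR too, as was 1 marker each of the inhibitory neuron, astrocyte, endothelial, mural, hippocampus, cortex and striatum lists (higher for cortex, lower for the others). Their part was not tested.

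Of the 76 pathway genes edgeR called 3 for Ch25h loss in Tau- (3.95%, against 1.03% of all genes) and 4 in Tau+ (5.26%, against 3.55%). DESeq2 called 5 and 9 of them, and limma-voom 5 and 8. The shares of all genes called by these other tools are not given here, so their counts cannot be set against edgeR's shares. In Tau-, Vgf, a secreted neuropeptide precursor induced by activity, fell (-0.63 ± 0.12, SE; adjusted p 0.0265), and so did Jund, a Jun-family partner of Fos (-0.47), and Rxrb, a retinoid X receptor (-0.42; both adjusted p 0.0497). These were 1 of 12 delayed genes and 2 of 8 partners, with 0 of the 36 other immediate early genes, 13 upstream factors and 7 heat shock genes called and 3, 4 and 2 of them at an unadjusted p under 0.05, where 20.9% of all genes were (DESeq2 and limma-voom called 1, 0 and 0). In Tau+ Atf3, a stress-induced factor of the ATF family, fell from 2.78 ± 1.14 to 0.636 ± 0.311 CPM (SD, n = 4 each; log2 fold change -2.09 ± 0.43, SE; adjusted p 0.0162). Pcsk1, a protease that cuts neuropeptide precursors, rose by 0.63 (adjusted p 0.0125), and Jund (-0.44; adjusted p 0.0391) and Rxrb (-0.37; adjusted p 0.0459) fell again. By DESeq2 the further calls in Tau+ were Homer1, Jun, Gadd45g, Vgf and Mef2c, and by limma-voom Homer1, Vgf, Mef2c and Elk4. Homer1 had a log2 fold change of 0.40 ± 0.13 (SE; adjusted p 0.0774 by edgeR), opposite in sign to its fall with tau; the Ch25h+/+ Tau+ group enters each of these comparisons. The same Ch25h+/+ and Ch25h-/- libraries differ in rRNA class, and with the class as a covariate edgeR called none of these genes, with Vgf at -0.14 and Jund at -0.14 in Tau- and Atf3 at -1.51 in Tau+. Rxrb was then at -0.03 in Tau+ and turned direction in Tau- (0.066). In Tau+ the calls of Pcsk1, Jund and Rxrb were also lost when only the 8 libraries compared were fitted. In Tau- those of Jund and Rxrb were lost under the filter of at least 50 mean counts. Single libraries also decided these calls. Without 1 library, the call of Pcsk1 was lost for Ch25h+/+ Tau+ replicate 4 and that of Atf3 for this library or Ch25h-/- Tau+ replicates 3 or 4, with adjusted p of up to 0.0616 and 0.0698 by edgeR. Vgf lost its call in Tau- without any 1 of Ch25h+/+ Tau- replicates 1, 2 and 4 or Ch25h-/- Tau- replicates 1, 2 and 3 (up to 0.126). In Tau- the calls of Jund and Rxrb were lost without any 1 of 13 and 14 of the 16 libraries, all but Ch25h+/+ Tau+ replicate 1, Ch25h-/- Tau+ replicate 1 and, for Jund, Ch25h-/- Tau- replicate 4 (up to 0.194). In Tau+ both were lost without Ch25h+/+ Tau+ replicate 1 or 4 or Ch25h-/- Tau+ replicate 2, 3 or 4, and Rxrb also without Ch25h+/+ Tau- replicate 2, 3 or 4 or Ch25h-/- Tau- replicate 2 (up to 0.133).

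In the mean effect of Ch25h loss, 17 of the 76 genes of the lists passed edgeR's test, or 22.4%, near the 20.3% of all genes, so their number says nothing particular to the pathway. Of the 36 other immediate early genes, 4 fell: Atf3 (-0.98), Gadd45g, a growth arrest and DNA damage gene (-0.55), Ier5 (-0.43) and Jun (-0.27). Of the 12 delayed genes Vgf (-0.52), Pim1 (-0.50) and Nptx2, a synaptic pentraxin (-0.36), fell and Pcsk1 rose (0.34). Of the 13 upstream factors 5 rose, each by little: Mef2c (0.23), Creb1 (0.22), Mef2a (0.22), Elk4 (0.22) and Mkl2 (0.21), the last 2 being cofactors of serum response factor. Of the 8 partners Jund (-0.45) and Rxrb (-0.40) fell and Arnt, which pairs with bHLH-PAS proteins, rose (0.23). Of the 7 heat shock genes Hspa1a fell (-0.41). DESeq2 called all 17 and also Rxra, Nab1 and Nab2. Limma-voom called 20 as well, without Jun and Arnt but with Ier3, Rxra, Nab1, Nab2 and Hsp90aa1. For these other tools too, the shares of all genes called are not given here. With the class as a covariate 0 genes of the whole table were called for this effect, so that these 17 calls and the library class cannot be told apart. Leaving out single libraries ended no call of Ier5, Gadd45g, Vgf, Pim1, Nptx2, Pcsk1, Mef2c, Jund or Rxrb. The call of Elk4 was lost without Ch25h-/- Tau+ replicate 4, that of Mef2a without Ch25h-/- Tau+ replicate 2, and that of Creb1 without either, with adjusted p of up to 0.0543 by edgeR. Those of Atf3, Jun, Hspa1a, Mkl2 and Arnt were lost without any 1 of 6, 9, 9, 11 and 13 of the 16 libraries (up to 0.0997).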

How the data were processed

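RNA from 16 samples in 4 groups of 4 was sequenced with a SMARTer mRNA kit, per the labels. The deposited table gives raw read counts per gene, whole numbers that the authors did not normalize. Reads were aligned with STAR 2.7 to GRCm38 (mm10), per the submitters' processing notes; the counting program and its use of strand are not given in the sources used here. Groups come from the genotype labels, and 0 columns were left out.

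Counts were filtered with filterByExpr, scaled with TMM and compared by two-sided quasi-likelihood F tests of edgeR 4.0.16 (R 4.3.3) in 1 fit of 16 libraries with a mean per group, with Benjamini-Hochberg adjustment over 17736 genes at 0.05 and 95% intervals from the same fit. DESeq2 1.42.0 (Wald test), limma 3.58.1 (voom with quality weights), other filters and scalings, a library class covariate and leaving out each library were alternatives. Code was tested on simulated data. Correlations used log2(CPM + 0.5). Member fold changes that were not called are compared across alternatives by their standard error.

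The genes and lists were chosen with earlier results of these data known. Named are all 10 genes, of each pathway list those past the threshold (at most 5 per comparison), the 10 genes most like the set's mean, and CT010467.1 and Malat1 as marks of libraries; genes called by DESeq2 or limma-voom alone, Srf, Nab2 and Dnajb1 were named after their values were seen.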

Additional observations from a re-analysis of the deposited data

Results flagged for a closer look

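Of 40 sets of 4 libraries (10 genes in 4 groups), 1 held a library far from the other 3. Npas4 measured 25.7 CPM in Ch25h-/- Tau- replicate 3 and 73.6 to 83.2 CPM in the other 3 libraries of that group, a gap of 0.833 of the group's range against a 95% critical value of 0.829. Chance marks about 1 in 20 such sets. The same library was the lowest of all 16 for 5 of the 10 genes, among them Fos (16.8 CPM) and Egr2 (3.86 CPM).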

How the results depend on the processing

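No gene of the 10 was called in any of the 7 comparisons, and this held under other size factors, a filter of at least 50 mean counts, DESeq2, limma-voom, the library class as a covariate, fits of only the 8 libraries compared (4 comparisons) and each library left out (range 0 to 0). With no filter beyond 1 count, 1 gene, Npas4, was called for Ch25h loss in Tau+ and for the mean effect of Ch25h loss. The share of all genes called under that filter is not given here. In the main edgeR fit it was 3.55% and 20.3% for these comparisons, so the calls say nothing particular to Npas4. The median pairwise correlation was 0.819 without the 2 farthest libraries and 0.838 to 0.898 with each library left out.

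Fold changes that were not called were compared by their standard error, with changes of sign counted apart: of 1580 alternative values, 31 moved by more than 1 standard error (28 of them with the class covariate) and 90 changed sign (27 of them with it). The mean tau effect changed sign in none of its 220. With the class covariate, 3 called genes changed sign: Rxrb was at 0.066 for Ch25h loss in Tau- and 0.019 for its mean effect, Mef2a at -0.016 and Hspa1a at 0.13 for the mean effect; the design leaves 1 rRNA-poor Ch25h-/- library to separate class from genotype. Atf3 has no value under the filter of at least 50 mean counts. No paired analysis was possible because the labels number no replicates: the numbers used in the text only follow the order of the sample records.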
